A study of Papio anubis with 24 samples.

Results

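The regions described here are 64 autosomal windows of 1 Mb in which peaks of DNA methylation called in baboon induced pluripotent stem cells (iPSC) made up an unusually large part of all peaks. Both peak lists, 1 from iPSC and 1 from embryonic stem cells (ESC), were laid over windows of 1 Mb along the 20 numbered autosomes. A window was kept if it held at least 50 peaks of both lists together and if at least 33% of them came from the iPSC list. Of 2604 autosomal windows with a peak, 1345 reached 50 peaks and 64 of these, or 4.76%, were kept, so that figure is fixed by the rule and carries no test. The 64 windows, called iPSC-rich below, held 11328 of the 211395 peaks of both lists, of which 7308 were ESC and 4020 iPSC peaks. The other 1281 windows with 50 or more peaks, called comparison windows, held 111224 ESC and 31608 iPSC peaks.

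The lists come from MeDIP-seq of olive baboon (Papio anubis) cells, in which an antibody against 5-methylcytosine pulls down methylated DNA fragments, and a peak is a stretch enriched over a local background. The labels give 24 libraries, with 6 MeDIP and 6 input libraries for each cell type. The ESC group comprises the embryo-derived lines B4 and B15, and the iPSC group the lines iPSC_160-2 and iPSC_M14939#3. Each line has 3 replicates, and all were grown on feeder cells in PluriSTEM medium. For 5 of the 6 libraries of the last line, the cell line label ends in another number than the title. Each cell type is represented by a single list, so no value exists per line or replicate, no test between cell types was possible, and a difference between cell types cannot be told apart from one between lines or between the depths of the lists.

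DNA methylation in mammals sits mostly on cytosines of CpG dinucleotides. It is laid down by de novo methyltransferases, copied at replication by a maintenance enzyme and removed with the help of TET oxidases. Reprogramming a somatic cell rewrites much of this pattern, and pluripotent cells are known for high activity of the de novo enzymes. Enrichment by the antibody grows with the number of methylated CpGs in a fragment, so MeDIP peaks mark DNA that is both methylated and fairly rich in CpG.

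The iPSC-rich windows held from 51 to 466 peaks, with a median of 157, and 17 of them held fewer than 100. The iPSC share of peaks ran from 33% to 46.9% with a median of 35.1%, against a median of 20.6% over all 1345 windows that were eligible. In none of the 64 windows did iPSC peaks outnumber ESC peaks. "Rich" therefore means relative to the ratio elsewhere, since the ESC list is the longer by far. The exact 95% intervals given with shares cover counting error only and treat neighbouring peaks as independent. For the share the rule selected on they describe precision and test nothing.

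**Figure D1:**
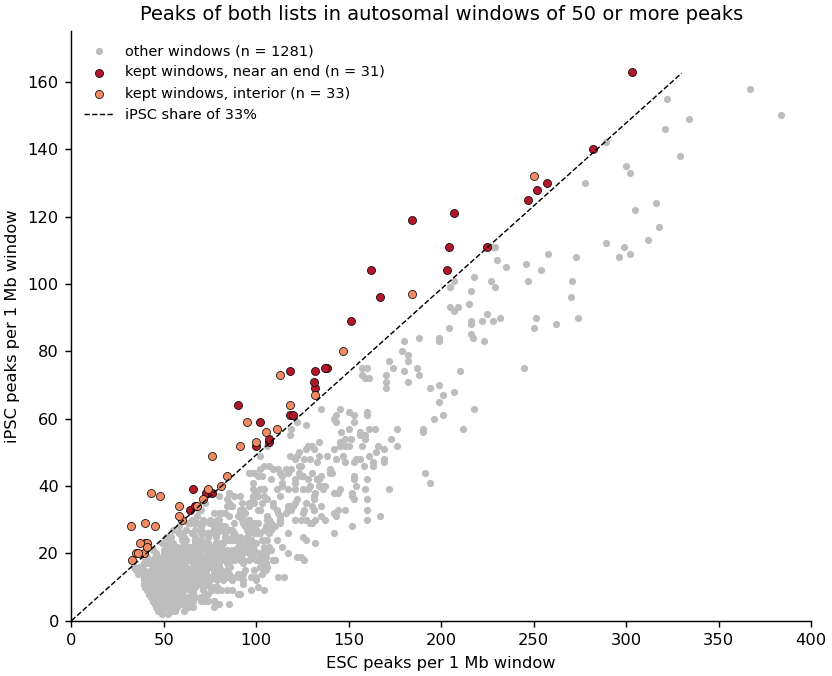
Number of ESC peaks (x axis) and iPSC peaks (y axis) in each of the 1345 autosomal windows with 50 or more peaks, with iPSC-rich windows in red (31 near a chromosome end) or orange (33 interior) and the 33% share as a dashed line. The coloured points follow the line from small to large windows, up to 303 ESC and 163 iPSC peaks, and only a few lie far above it.

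The highest share, 46.9% (exact interval 35.7 to 58.3%), was found on chromosome 10 from 56 to 57 Mb, where 38 iPSC peaks stood beside 43 ESC peaks. Chromosome 11 from 86 to 87 Mb followed with 28 iPSC and 32 ESC peaks, or 46.7% (33.7 to 60.0%). Chromosome 1 from 28 to 29 Mb had 37 and 48, or 43.5% (32.8 to 54.7%). These leading windows are small and their intervals overlap widely, so their order is not resolved.

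The fourth was chromosome 9 from 51 to 52 Mb, with 29 iPSC and 40 ESC peaks (42.0%). Next came chromosome 1 from 3 to 4 Mb with 64 and 90 (41.6%) and chromosome 8 from 137 to 138 Mb with 119 and 184 (39.3%). Of these, the chromosome 8 window rests on the most peaks and has the narrowest interval, 33.7 to 45.0%. The remaining 4 of the leading 10 lay between 38.5% and 39.2%. They were chromosome 1 from 133 to 134 Mb (73 iPSC, 113 ESC), chromosome 5 from 5 to 6 Mb (49 and 76), chromosome 7 from 161 to 162 Mb (104 and 162) and chromosome 13 from 2 to 3 Mb (74 and 118). The first 4 of the 10, and 6 of all 10, lay more than 5 Mb from a chromosome end.

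Windows with the most peaks had shares closer to the threshold. The first Mb of chromosome 6 held 163 iPSC and 303 ESC peaks (35.0%, 30.6 to 39.5%). Chromosome 9 from 124 to 125 Mb held 140 and 282 (33.2%), and chromosome 11 from 132 to 133 Mb held 130 and 257 (33.6%). The centres of all 3 lie within 1.28 Mb of the chromosome end.

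The threshold cut through a continuous distribution. Just inside it were chromosome 11 from 131 to 132 Mb (111 iPSC of 336 peaks, 33%), chromosome 1 from 16 to 17 Mb (40 of 121, 33.1%) and chromosome 10 from 88 to 89 Mb (53 of 160, 33.1%). Just outside were chromosome 3 from 180 to 181 Mb (142 of 431), chromosome 10 from 91 to 92 Mb (27 of 82) and chromosome 11 from 128 to 129 Mb (52 of 158), all at 32.9%. A further 86 comparison windows, these included, had a share of 30% or more.

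The iPSC-rich windows lay on 19 of the 20 autosomes. Chromosome 1 had 8, chromosome 10 had 7, chromosomes 9 and 11 had 6 each, and chromosomes 6 and 13 had 5 each. Relative to the eligible windows of a chromosome, chromosome 10 led with 7 of 75 (9.33%), ahead of chromosome 11 with 6 of 73 (8.22%), chromosome 6 with 5 of 61 and chromosome 13 with 5 of 62 (8.06%). Chromosome 16, with 68 of its 75 windows eligible, had 0, and its window from 26 to 27 Mb lay just below the limit (19 iPSC of 58 peaks, 32.8%). Chromosome 2, the other extreme among chromosomes with any, had 1 of 65.

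Nearness to a chromosome end, which the rule did not use, went with the share over all eligible windows together, but not at the lowest density. Taking the window's centre, 31 of the 64 iPSC-rich windows (48.4%) lay within 5 Mb of an end, against 13.5% of the comparison windows. Put the other way, 15.2% of the 204 eligible windows near an end were kept and 2.89% of the 1141 interior ones. In peaks, 2557 of the 4020 iPSC peaks of the iPSC-rich windows started within 5 Mb of an end (63.6%, exact interval 62.1 to 65.1%), where 32.2% of all autosomal iPSC peaks did. For ESC peaks it was 4698 of 7308 (64.3%, 63.2 to 65.4%), where 21.7% of all autosomal ESC peaks and 25.2% of those in comparison windows did. Windows near an end were also denser in peaks. By density, the median distance of the centre from an end was 34.5 Mb in iPSC-rich and 31.7 Mb in comparison windows of 50 to 99 peaks. It was 5.5 and 14.5 Mb from 100 to under 200 peaks, and 1.84 and 2.99 Mb at 200 or more. The 33 interior windows were spread along the arms, with distances up to 84.0 Mb from the nearest end.

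**Figure D2:**
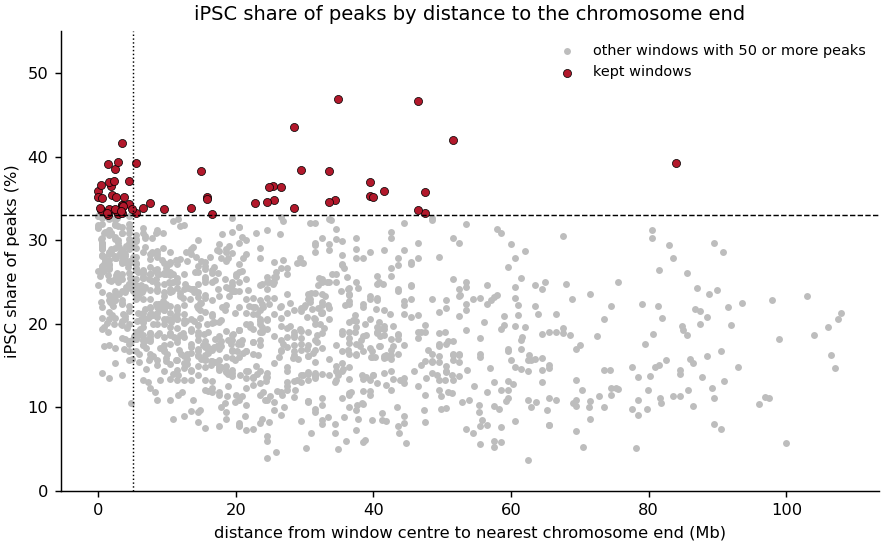
iPSC share of peaks (y axis, percent) against the distance of the window centre from the nearest chromosome end (x axis, Mb) for the 1345 windows with 50 or more peaks, with the 64 iPSC-rich windows in red, the 33% threshold dashed and the 5 Mb limit dotted. Red points crowd left of the dotted line, while the 4 highest shares, 42.0% to 46.9%, lie in the interior.

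Some of the windows touched. There were 9 runs of adjacent iPSC-rich windows, which together took in 20 of the 64. The longest, chromosome 9 from 122 to 126 Mb, comprised the last 4 windows of that chromosome with 387 iPSC and 743 ESC peaks (34.2%, 31.5 to 37.1%). Runs of 2 at or near chromosome ends were chromosome 7 from 161 to 163 Mb (163 iPSC and 264 ESC peaks, 38.2%), chromosome 8 from 137 to 139 Mb (215 and 351, 38.0%), chromosome 1 from 3 to 5 Mb (133 and 222, 37.5%), chromosome 13 from 2 to 4 Mb (126 and 218, 36.6%), chromosome 6 from 2 to 4 Mb (99 and 196, 33.6%) and chromosome 11 from 131 to 133 Mb (241 and 482, 33.3%). Away from the ends lay chromosome 11 from 85 to 87 Mb (58 and 92, 38.7%) and chromosome 19 from 35 to 37 Mb (123 and 213, 36.6%).

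The windows beside them, which failed the rule, were also above the rest. The 87 comparison windows next to an iPSC-rich window had a median share of 25.3% (interquartile range 21.0 to 29.5%), and the 1194 others had 19.6% (14.8 to 24.7%). The order was the same near the ends, with medians of 29.1% over 33 windows and 26.3% over 140, and in the interior, with 23.0% over 54 and 18.8% over 1054.

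Over all densities together, iPSC-rich windows held more iPSC peaks and also more ESC peaks than comparison windows. An iPSC-rich window held a median of 55 iPSC peaks (interquartile range 34 to 76.3) and 101 ESC peaks (63 to 140.2), and a comparison window 17 (11 to 29) and 70 (54 to 100). The iPSC peaks that overlapped no ESC peak by even 1 bp numbered 24 per iPSC-rich window (16 to 32.3) and 6 per comparison window (3 to 11). The iPSC peaks that did overlap an ESC peak numbered 32 (16 to 50.5) and 11 (7 to 19). Peaks of the ESC list alone were closer, at 68.5 (46.5 to 93) and 59 (46 to 82). These counts are what the rule selected on and serve as a description only.

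Set within the same part of the chromosome, the ESC-alone count was lower in iPSC-rich windows. Near the ends the medians were 31 iPSC-alone peaks in iPSC-rich and 15 in comparison windows, 46 and 37 overlapping iPSC peaks, and 90 and 115 ESC-alone peaks. In the interior they were 18 and 5 iPSC-alone, 17 and 10 overlapping, and 49 and 56 ESC-alone. The interquartile ranges of iPSC-alone counts did not overlap in the interior and barely did near the ends, whereas those of ESC-alone counts overlapped broadly in both. At like density, fewer ESC peaks follow from the rule, since a larger iPSC part of a like total leaves a smaller ESC part. The values by density are therefore a description only. In iPSC-rich and comparison windows of 50 to 99 peaks the medians were 28 and 12 iPSC peaks and 41 and 56 ESC peaks. ESC-alone peaks there numbered 30 (26 to 34) and 49 (41 to 57), with ranges apart. The ESC-alone medians were 63.5 and 82 from 100 to under 200 peaks, and 123 and 144 at 200 or more.

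**Figure D3:**
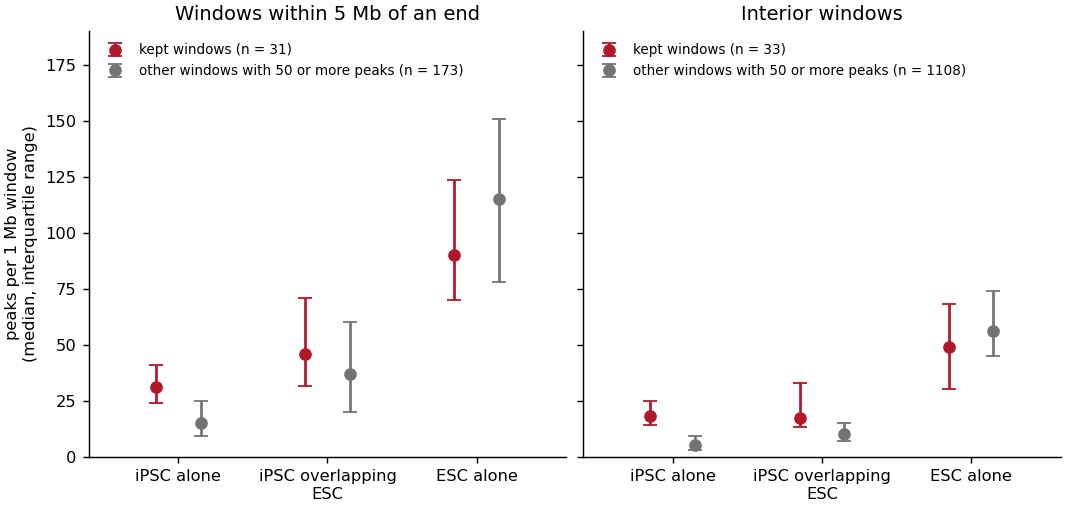
Peaks per 1 Mb window (y axis) found in the iPSC list alone, in the iPSC list and overlapping an ESC peak, or in the ESC list alone, as medians (points) and interquartile ranges (bars), for iPSC-rich windows (red) and comparison windows (grey), within 5 Mb of an end (left) and in the interior (right). The red points stand above the grey ones for iPSC-alone peaks, 31 against 15 near the ends and 18 against 5 in the interior, and below them for ESC-alone peaks.

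Accordingly, the lists met differently in these windows. Of the 4020 iPSC peaks, 2392 overlapped an ESC peak (59.5%, exact interval 58.0 to 61.0%), against 66.5% of all autosomal iPSC peaks and 67.5% (67 to 68.0%) in comparison windows. Of the 7308 ESC peaks, 2442 overlapped an iPSC peak (33.4%, 32.3 to 34.5%), against 18.1% of all autosomal ESC peaks. Both shares move with the ratio of the counts and so are not independent of the rule. The iPSC share that overlapped ran from 31.6% to 96.2% across the 64 windows, with a median of 54.2%. The window of highest iPSC share, chromosome 10 from 56 to 57 Mb, was also the one at 31.6%, with 12 of its 38 iPSC peaks on ESC peaks. In its other places, 26 iPSC peaks and 30 ESC peaks lay apart.

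Most iPSC-alone peaks of these windows lay more than 1 kb from any ESC peak. The lists hold no ESC signal at places without an ESC peak, so a site just short of a call cannot be seen. Of 1628 such peaks, 353 (21.7%, 19.7 to 23.8%) lay within 1 kb of an ESC peak, close to the 19.5% of all autosomal iPSC-alone peaks. Their median distance was 3011 bp (1156 to 6251 bp) to the nearest ESC peak, and 3168 bp (1218 to 7184 bp) in comparison windows. Their median fold enrichment, the ratio of fragments at the summit to the local background, was 2.61, beside 2.56 for the overlapping iPSC peaks of the same windows. These medians differed by far less than the interquartile range of either class, 2.23 to 3.07 for iPSC-alone and 2.20 to 3.01 for overlapping peaks.

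Along 3 stretches in iPSC-rich windows, 6 or more iPSC peaks followed each other with no ESC peak between them. Over all autosomes there were 7, of which 4 lay in comparison windows and 0 in the 1259 windows under 50 peaks. The widest, chr10:56753373-56946378, held 8 iPSC peaks over 193.0 kb, inside a gap of 307.5 kb between ESC peaks. The lowest fold in it was 1.97, the median 2.35 and the highest 3.47. On chromosome 6, 7 iPSC peaks of 1.82 to 3.51 fold lay at 3406952 to 3422634 within an ESC gap of 86.5 kb. On chromosome 1, 6 peaks of 2.44 to 3.24 fold lay at 4819359 to 4840030 within a gap of 27.2 kb. The stretches were looked for after the maps of the leading windows had been seen.

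**Figure D4:**
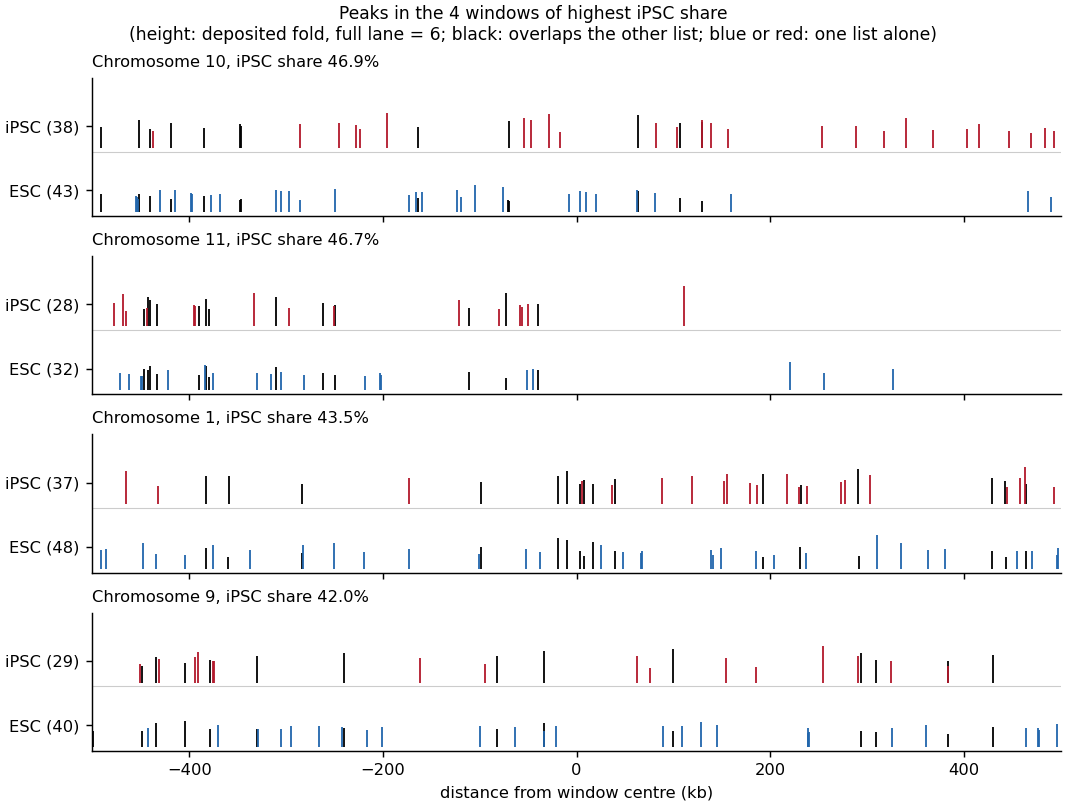
Position of every peak in the 4 windows of highest iPSC share, as distance from the window centre (x axis, kb), with ESC peaks in the lower and iPSC peaks in the upper lane of each panel, height for deposited fold, black for peaks that overlap the other list and blue or red for peaks of 1 list alone. On chromosome 10 (38 iPSC, 43 ESC peaks) the right end holds a row of iPSC-alone peaks where ESC peaks are nearly absent, and on chromosome 11 (28 iPSC, 32 ESC peaks) peaks of both lists crowd into the left of the window.

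The iPSC peaks of these windows were wider than elsewhere, and width was not part of the rule. The median was 268 bp, with quartiles of 215 and 405 bp, and in comparison windows 242 bp, with quartiles of 209 and 330 bp, while ESC peaks measured 227 bp and 217 bp. Near the ends the iPSC medians were 276 and 259 bp, and in the interior 254 and 236 bp. The difference was also present at each density: 247 and 233 bp in windows of 50 to 99 peaks, 261 and 240 bp from 100 to under 200, and 280.5 and 259 bp at 200 or more. The wider iPSC peaks added to the higher counts. The bases under iPSC peaks came to 0.741 times those under ESC peaks in the median iPSC-rich window and to 0.309 times in the median comparison window. They exceeded the ESC bases in 7 of the 64 iPSC-rich windows and in 1 of the 1281 others, by up to 1.65 times on chromosome 10 from 56 to 57 Mb. Unlike the widths, these totals of bases follow in large part from the counts that the rule selected on, and are a description only.

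Very wide peaks were more frequent too. Of the iPSC peaks in iPSC-rich windows, 133 were 1 kb or wider (3.31%, 2.78 to 3.91%), where 2.10% of all autosomal iPSC peaks were. In comparison windows the share was 2.10% (1.94 to 2.26%). Near the ends it was 3.59% (2.90 to 4.38%) beside 2.74% (2.44 to 3.08%), and in the interior 2.82% (2.03 to 3.80%) beside 1.78% (1.60 to 1.96%), so the intervals overlapped in the first case and not in the second. Of the ESC peaks, 30 of 7308 were this wide (0.411%, 0.277 to 0.586%), where 0.111% of all autosomal ESC peaks were. Of these 30, however, 9 lay on chromosome 6 from 135 to 136 Mb and 6 in the first Mb of that chromosome. The median iPSC-rich window held 0. Windows on chromosomes 6 (from 0 to 1 Mb), 7 (from 161 to 162 Mb) and 8 (from 137 to 138 Mb) carried 8 wide iPSC peaks each, the most of any iPSC-rich window.

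The widest iPSC peak, 3257 bp on chromosome 6 at 3148057 to 3151313, had a fold of 1.84 and covered 4 ESC peaks. On chromosome 8, a peak of 2702 bp at 137665354 to 137668055 reached a fold of 4.22 and lay 3845 bp from the nearest ESC peak. The peak of 2504 bp on chromosome 3 at 33587102 to 33589605 had a fold of 2.79 and met 3 ESC peaks. Another without ESC overlap was the peak of 2440 bp on chromosome 7 at 162538469 to 162540908, with a fold of 3.07. The last of the 5, on chromosome 13 at 2498859 to 2501200, had a fold of 3.33 and met 1 ESC peak of 620 bp and fold 1.36. Of these 5, then, 3 covered ESC peaks and 2 lay apart from any.

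Peaks of the iPSC list also stood closer together. In iPSC-rich windows 25% of iPSC peaks (23.7 to 26.4%) had the next iPSC peak within 2 kb, where 14.6% of all autosomal iPSC peaks did. Near the ends it was 28.0% (26.2 to 29.7%) beside 22.1% (21.3 to 22.9%) in comparison windows, and in the interior 19.8% (17.8 to 21.9%) beside 11.2% (10.7 to 11.6%). Of the ESC peaks, 36.6% (35.5 to 37.7%) had the next ESC peak within 2 kb, where 22.8% of all autosomal ESC peaks did. For ESC this depended on where the windows lie. Near the ends the shares were 41.7% (40.2 to 43.1%) and 40.8% (40.2 to 41.4%), with overlapping intervals, in the interior 27.3% and 20.9%, and in windows of 50 to 99 peaks 13.9% (11.5 to 16.5%) and 15.9% (15.6 to 16.2%). Such spacing follows in part from the counts. The densest 100 kb of an iPSC-rich window held a median of 13.5 iPSC peaks (9.75 to 20.3) out of its median of 55, and of 20.5 ESC peaks out of 101. In comparison windows the medians were 6 iPSC peaks (4 to 9) out of 17, and 16 ESC peaks out of 70. Measured against the median count, the densest 100 kb thus held a smaller part of either list in iPSC-rich windows.

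Fold enrichment alone did not set the iPSC peaks of these windows apart. Their median fold was 2.57 (2.22 to 3.03), and that of comparison windows 2.56 (2.20 to 3.01). The ESC peaks had a lower median fold in iPSC-rich windows, at 2.08 (1.79 to 2.43) against 2.23 (1.91 to 2.64). The gap lay mostly in the interior, with 2.10 and 2.29, and near the ends the medians over peaks were 2.06 and 2.10. Taken as the median of window medians near the ends, they were 2.14 in both kinds of window. The median iPSC fold was above the median ESC fold in each of the 64 windows and in 91.3% of the comparison windows. Comparison windows held fewer iPSC peaks, with a median of 17 against 55, so their window medians are less precise. Folds of the lists refer to different backgrounds and are not on a common scale, so only the comparison between kinds of window within a list is direct.

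The iPSC share was higher among stronger peaks, as ranked by −log10 q in the authors' deposited table, in both kinds of window. With all peaks the pooled iPSC share was 35.5% in iPSC-rich and 22.1% in comparison windows. Among peaks of −log10 q 10 or more it was 43.6% (1793 iPSC, 2322 ESC) and 28.2%, and at 15 or more 50.7% (842 and 818) and 36.5%. At 20 or more, iPSC peaks outnumbered ESC peaks in the iPSC-rich windows, 438 to 238, a share of 64.8% (61.1 to 68.4%), beside 48.8% (47.5 to 50.1%) in comparison windows. The gap between the kinds of window was present at each limit, and since the share is what the rule selected on, it is a description only.

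Sites called once in each list allow the same places to be compared. The iPSC-rich windows held 2295 such pairs. The deposited fold was higher in iPSC at 1842 of them (80.3%, 78.6 to 81.9%), where it was at 77.0% of all autosomal pairs, and the median ratio of iPSC to ESC fold was 1.26 (1.05 to 1.53), against 1.21 (1.02 to 1.46) in comparison windows. The iPSC peak was the wider at 51.2% of the pairs (49.2 to 53.3%), where it was at 45.5% of all autosomal pairs. It had the higher −log10 q at 51.6% (49.6 to 53.7%), where it had at 44.5% of all autosomal pairs, again by the authors' deposited table. Near the ends the iPSC peak was wider at 52.2% (49.6 to 54.7%) of pairs in iPSC-rich and 44.0% (42.9 to 45.2%) in comparison windows, and in the interior at 49.5% (45.9 to 53.0%) and 45.9% (45.1 to 46.7%). Only the interior intervals overlapped.

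The fragments behind each pair were worked out from each peak's fold and p-value. They are given here as multiples of the lowest background of the list, 11.99 fragments for ESC and 10.2 for iPSC. At the pairs of iPSC-rich windows the median summit pileup was 10.5 times this level for ESC and 7.56 times for iPSC, and the median local background 5.08 and 2.93 times. In comparison windows the pileups were 9.76 and 7.15 times and the backgrounds 4.55 and 2.74 times. The median ratio of iPSC to ESC pileup was 0.722 in iPSC-rich and 0.726 in comparison windows, while the ratio of backgrounds was 0.571 in iPSC-rich windows and 0.598 in comparison windows.

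Higher relative values in iPSC were rare on both measures. The pileup was higher in iPSC at 3.01% of the pairs (2.35 to 3.79%), where it was at 2.51% of all autosomal pairs, and the background at 2.44% (1.85 to 3.16%), where it was at 2.99%. Near the ends the ESC background was 5.15 times the lowest level in both kinds of window, and the iPSC background 2.93 times in iPSC-rich and 3.03 times in comparison windows. In the interior the background was higher in iPSC-rich than in comparison windows for both lists. The medians there were 4.927 and 4.255 times for ESC, and 2.898 and 2.542 times for iPSC. Fold is the ratio of pileup to local background, so fold and background are tied by construction. The part of the background in the higher iPSC fold or in the number of iPSC peaks called was not tested.

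**Figure D5:**
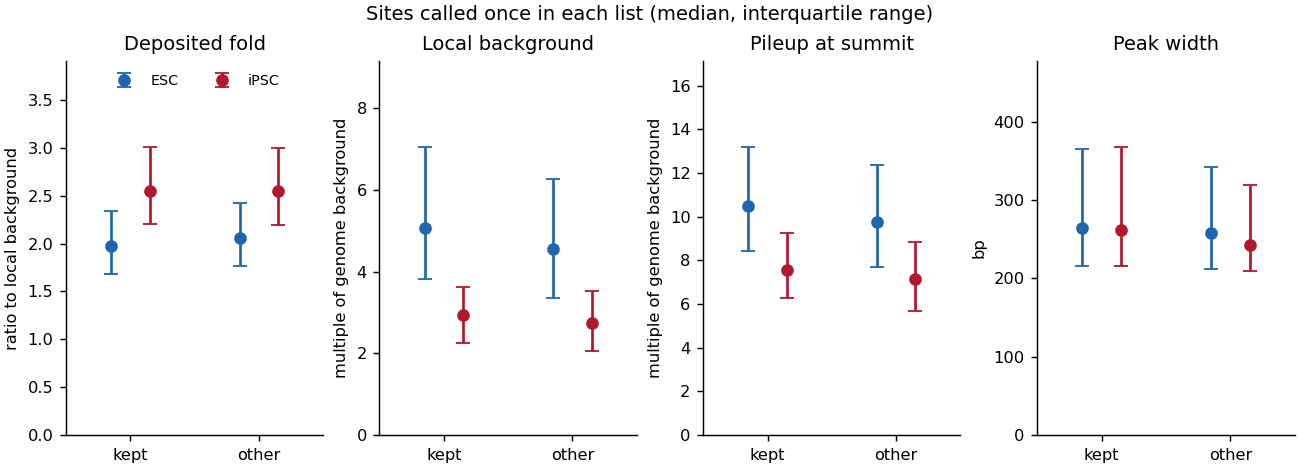
Deposited fold, local background, pileup at the summit (both as multiples of the lowest background of the list) and width (bp) of sites called once in each list, as medians (points) and interquartile ranges (bars) for ESC (blue) and iPSC (red) in the 64 iPSC-rich windows (2295 pairs) and the comparison windows (20768 pairs). ESC background is higher in iPSC-rich windows (5.08 against 4.55), and the iPSC width rises from 242 to 262 bp to meet that of ESC.

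The single peaks of highest iPSC fold were picked on that value. A low iPSC background and a lower ESC fold at the same place therefore follow in part from the choice. Backgrounds are given here in fragments of each list, not as multiples, and are not on a common scale. The highest iPSC fold, 7.99 on chromosome 14 at 1314032 to 1314359, rested on a background of 12 fragments, and the ESC peak at the same place had a fold of 1.62 over a background of 111. On chromosome 5 at 7950715 to 7950975 the iPSC fold was 6.93 and the ESC fold 2.44, over 13.7 and 65.3 fragments. An iPSC-alone peak of 1310 bp on chromosome 8 at 137418248 to 137419557 had a fold of 6.69 and lay 4685 bp from the nearest ESC peak. On chromosome 9, the site from 123204218 to 123204649 had an iPSC fold of 6.00 and an ESC fold of 2.42. The folds were 5.79 and 1.73 for chr13:3749710-3750001, and 5.43 and 1.29 for chr17:91215355-91216213.

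Of the ESC peaks without iPSC overlap in these windows, chr10:4462019-4462215 had the highest fold, 5.61, and chr1:25501497-25501733 followed with 5.41, the latter 75037 bp from the nearest iPSC peak. Next came chr10:2075829-2076058 (4.54), chr19:24757150-24757333 (4.41) and chr6:3287451-3287653 (4.39). All 5 were narrow, at 184 to 237 bp, and the chromosome 19 peak lay only 513 bp from an iPSC peak. These peaks too were picked on fold. The 2 highest rested on backgrounds of 12.2 and 13.4 fragments, close to the lowest of the ESC list, 11.99, and the others on 17.0 to 20.6. Windows relatively rich in iPSC peaks thus still held sites of high fold seen in the ESC list alone.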

How the data were processed

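MeDIP-seq and input libraries of 24 samples were grouped by their titles into 4 groups of 6. The 2 deposited peak lists, 1 per cell type, have the narrowPeak layout. The submitters' processing notes list MACS2, deepTools, SAMtools 1.10 and Picard 2.239. Not given in the sources used here are the MACS2 version and options, the aligner, the genome build and how libraries were pooled. The deposited fold is the authors' linear ratio of pileup to local background at the summit. Each peak's −log10 of its p-value and of its q-value are likewise deposited by the authors. Fold, p and q depend on each list's own depth and background. Where they are set side by side between lists, at paired sites or at a shared q limit, the values are a description.

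Windows were numbered by the peak start divided by 1000000. The windows, their peaks and the named windows and peaks were chosen with earlier results of these data known. Named were the 10 windows of highest share, 3 on each side of the threshold, the 3 with most peaks, all runs, and 5 peaks each of highest fold (iPSC, overlapping iPSC, ESC alone) and greatest iPSC width. Each chromosome was taken to stop where its final peak stops. Overlap meant 1 bp or more. Shares carry exact Clopper-Pearson intervals, 95%, for counting error only. Pileup and background were solved from fold, with 1 added to both terms, and a Poisson p-value. The iPSC pileup carried a fitted factor of 0.690, and 100% of peaks gave whole fragments within 0.02. This was tested on simulated peaks. Read depth per library is unknown. Positions count from 1 on the lists' own build. The annotation at hand is of assembly Panubis1.0, another build than could be matched to the lists, so no gene or sequence is given. Intervals were computed with scipy 1.17.1 and tables with pandas 2.3.3 under Python 3.11.15.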

Additional observations from a re-analysis of the deposited data

Results flagged for a closer look

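The X chromosome, which the definition of the iPSC-rich windows leaves out, had 29 windows of 50 or more peaks, and 1 of them met the same counts. It lay from 28 to 29 Mb and held 49 iPSC and 30 ESC peaks, so that, unlike in any of the 64 autosomal windows, iPSC peaks were the more numerous.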

How the results depend on the processing

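The number of windows follows the threshold. It was 150 at a lowest share of 30%, 22 at 36% and 110 with peaks of −log10 q of at least 5, a filter that removes a larger part of the ESC list and that kept 54 of the 64 windows. It stayed within 1.5 times of 64 for a grid shifted by 500 kb, whose windows overlapped 42 of the 64, and for a minimum of 30 or 100 peaks. Merging peaks within 100 bp joined none, since the closest lay 102 bp apart. The overlapping share of iPSC peaks was 52.7% at −log10 q of at least 5, 63.6% and 53.1% at shares of 30% and 36%, 61.3% with 100 peaks and 51.1% for overlap of 50% of both peaks. That of ESC peaks was 29.9% at −log10 q of at least 5, 31.9% at a share of 30% and 28.1% for 50% overlap. The iPSC share near an end was 69.0% at −log10 q of at least 5, 65.5% on the shifted grid, 60.8% at a share of 36%, 70.8% with 100 peaks, and 33% and 71.4% within 2 and 10 Mb. At −log10 q of at least 5, 3.98% of iPSC peaks were wide, the iPSC fold was higher at 83.2% of pairs and the iPSC background at 1.61%. At a share of 36% the last 2 values were 83.0% and 3.25%. Apart from the alternatives' own construction, the cause was not tested. The alternatives for the background and the iPSC-alone counts were chosen after seeing the data. No paired analysis was possible because the lists hold no values of single replicates, and for the same reason none could be left out.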

Other observations

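The following windows were singled out after their values had been seen. Chromosome 6 from 135 to 136 Mb, an interior window with 80 iPSC and 147 ESC peaks, was unlike the other iPSC-rich windows in its classes of sites. Of its iPSC peaks, 77 overlapped an ESC peak (96.2%) and 3 stood alone, where the next highest overlapping share among the 64 windows was 77.5%. It was also the only one with fewer iPSC-alone peaks than the median comparison window. The median iPSC background there was 4.76 times the lowest level of the list, ahead of 3.42 in the next window, and 9 of its ESC peaks were 1 kb or wider.

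Chromosome 4 from 163 to 164 Mb held the longest close row of ESC peaks in the iPSC-rich windows, 36 peaks from 163148189 to 163178392, each within 2 kb of the next, of which 21 overlapped an iPSC peak. In the first Mb of chromosome 6, 16 iPSC peaks stood in such a row from 57583 to 76494 and covered 49.0% of it, with 15 on ESC peaks. In the rows on chromosomes 4 and 6 the lists run together. The last window of chromosome 17 with peaks, from 91 Mb, packed 38 of its 71 iPSC peaks into the densest 100 kb of that list. Of its 131 ESC peaks, 64 lay in the densest 100 kb of the ESC list. Each 100 kb was found separately, so they need not be the same place. The peaks of this window also stop no further than its centre, so it is not a full 1 Mb. The stretch of iPSC peaks on chromosome 10 is not a row of this kind, with 8 peaks over 193.0 kb. It was searched for as iPSC peaks with no ESC peak between them, so the lack of ESC peaks there is no separate result.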
